A study of Mus musculus with 20 samples.

Results

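The genes of the proteasome and of its assembly were followed across 4 ages of mouse corneal epithelium. They were taken by symbol: *Psma*, *Psmb*, *Psmc*, *Psmd*, *Psme*, *Psmf* or *Psmg* followed by a digit, without pseudogenes. The rule found 50 of the 24552 genes in the table. They comprised 14 constitutive subunits of the 20S core, 17 subunits of the 19S cap, 5 immunoproteasome genes (*Psmb8*, *Psmb9*, *Psmb10*, *Psme1* and *Psme2*), 7 assembly factors and 7 other genes. Of these, 48 passed the expression minimum (a mean normalized count of at least 10 over all libraries) and were tested among 11288 genes. The testis subunit *Psma8* was at 0 in every library. The thymic cortex subunit *Psmb11* had a single value above 0, 3.18 in young replicate 4.

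The proteasome degrades proteins that carry ubiquitin chains. Its 20S core is a barrel of outer alpha rings and inner beta rings, and the beta rings hold the proteolytic sites. The 19S cap binds the ubiquitinated protein, removes the ubiquitin, unfolds the chain with a ring of ATPases and feeds it into the core. Interferons replace the 3 catalytic beta subunits with inducible ones to form the immunoproteasome, which cuts peptides suited to class I antigen presentation. In the cornea the epithelium is renewed continuously, and its cells are shed at the surface.

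Each library held the corneal epithelium of both eyes of 1 naïve wild-type female C57BL/6J (B6) mouse, removed by debridement. There were 5 libraries each at 2 to 3 months (young), 12 to 13, 18 to 19 and 24 to 25 months (12-month, 18-month and 24-month). Mice were bought, aged in house or received from the National Institute of Aging, and the source of each animal was not given, so that source and age cannot be told apart. Reads came from the 3′ end of transcripts, and those on genes numbered 6699383 to 10762360 in a library. Values are normalized counts, that is, reads divided by the size factor of the library, and are given in the order of replicates 1 to 5. They compare a gene between libraries and not genes with each other. Exons of 15 members overlap those of another gene in the GENCODE annotation, among them *Psmb5*, *Psmb7*, *Psmb8*, *Psmb9*, *Psmc3*, *Psmd9*, *Psme1* and *Psmg3*. Whether the counting used strand, and how it treated reads on shared exons, is not given in the sources used here. Values of these genes may hold reads of their partners or lack reads of their own.

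The 8 corneal epithelial markers were all expressed, with a summed level of 383500 to 493000 normalized counts in the young libraries and 418400 to 457300 at 24 months. Stromal keratocyte markers were lower in aged libraries, with a summed level of 1637 to 4374 in the young group and 318 to 1018 at 24 months. The summed level of the conjunctival markers was 28430 to 49760 in the young group and 24760 to 29850 at 24 months. Of the 3 tested, 2, 2 and 1 passed the test for lower expression, given below, at 12, 18 and 24 months. Of all genes tested, 0.532%, 0.673% and 0.78% passed it in either direction. The part of stromal and conjunctival cells in the values below was not tested. In bulk samples, fewer cells of a type and less RNA per cell cannot be told apart. Young replicate 1 stood apart from the other libraries at many proteasome genes, and results that rest on it are given without it as well.

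Together, the 50 genes held 0.387% ± 0.017 of the reads on genes in young mice, 0.393% ± 0.019 at 12 months, 0.371% ± 0.014 at 18 months and 0.38% ± 0.0097 at 24 months (SD, n = 5 each). The 20S core held 0.14% ± 0.018 in young mice and 0.14% ± 0.0046 at 24 months, and the 19S cap 0.186% ± 0.016 and 0.179% ± 0.007.

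No proteasome gene was differentially expressed with age. A DEG was a gene with an adjusted p of 0.05 or less (limma, Benjamini-Hochberg over all 11288 genes) and a change of at least 1.2-fold. At 12 months against young, 0 of 48 were DEGs, where 0.532% of all genes were, and 1 had an unadjusted p below 0.05, where 9.56% of all genes did. At 18 months, the counts were 0 and 1, with 0.673% and 7.18% of all genes. At 24 months, they were 0 and 2, with 0.78% and 9.97% of all genes. The 15 aged libraries against the 5 young ones gave 0 and 1, with 1.01% and 7.89% of all genes. For 24 against 12 months, 0 were DEGs and 7 had an unadjusted p below 0.05, where 0.195% and 14.7% of all genes did. In the F test over the 4 ages, the counts were 0 and 3, with 0.904% and 11.4% of all genes. With voom on the recovered reads there were also 0 DEGs among the members in each of these 6 comparisons, and 0, 1, 2, 1, 6 and 3 members with an unadjusted p below 0.05. The shares of all genes with voom were not counted. Leaving out any 1 of the 20 libraries gave 0 DEGs among the members as well. Libraries of 2 ages did not overlap for 0, 0 and 1 member at 12, 18 and 24 months against young, for 0 in aged against young and for 2 at 24 against 12 months, beside 1.98%, 2.05%, 2.81%, 0.461% and 3.24% of all genes.

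The changes were also bounded, but seldom within the 1.2-fold that a DEG needs. At 24 months against young, the 95% interval of 2 of 48 members (4.17%) lay within 1.2-fold, beside 1.31% of all genes. At 24 against 12 months, 0 members had such an interval, beside 1.13% of all genes. Wider bounds held for more members. At 24 months against young, the 95% interval of 28 of 48 members (58.3%) lay within 1.5-fold in either direction, where this was so for 35.9% of all genes tested. For 41 members (85.4%) it lay within 2-fold, against 68% of all genes. At 12 and 18 months, for all aged libraries and for 24 against 12 months, 30, 29, 38 and 24 intervals lay within 1.5-fold, against 36.9%, 38.6%, 49.9% and 32.4% of all genes. At 24 months against young the estimate itself was under 1.5-fold for 46 of 48, against 87.2% of all genes, and the exceptions were the assembly factor *Psmd9* and the low-count gene *Psmc3ip*. The standard error of the log2 fold change had a median of 0.178 over the members and 0.243 over all genes. Neither this nor the shares of intervals was matched for expression level. The groups' medians of the log2 fold change at 24 months were −0.10 for the 20S core, −0.14 for the 19S cap, 0.02 for the immunoproteasome genes and 0.26 for the assembly factors, beside 0.01 over all genes tested. Without young replicate 1 these 4 medians were −0.13, −0.06, −0.10 and 0.14. Single libraries moved them by more than 1.5 times. The core median ranged from −0.17 (without 24-month replicate 5) to −0.002 (without young replicate 2), the cap median from −0.15 (without young replicate 2) to −0.06 (without young replicate 1), the immunoproteasome median from −0.10 (without young replicate 1) to 0.14 (without young replicate 2), and the assembly median from 0.047 (without 24-month replicate 5) to 0.33 (without 24-month replicate 3).

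**Figure D1:**
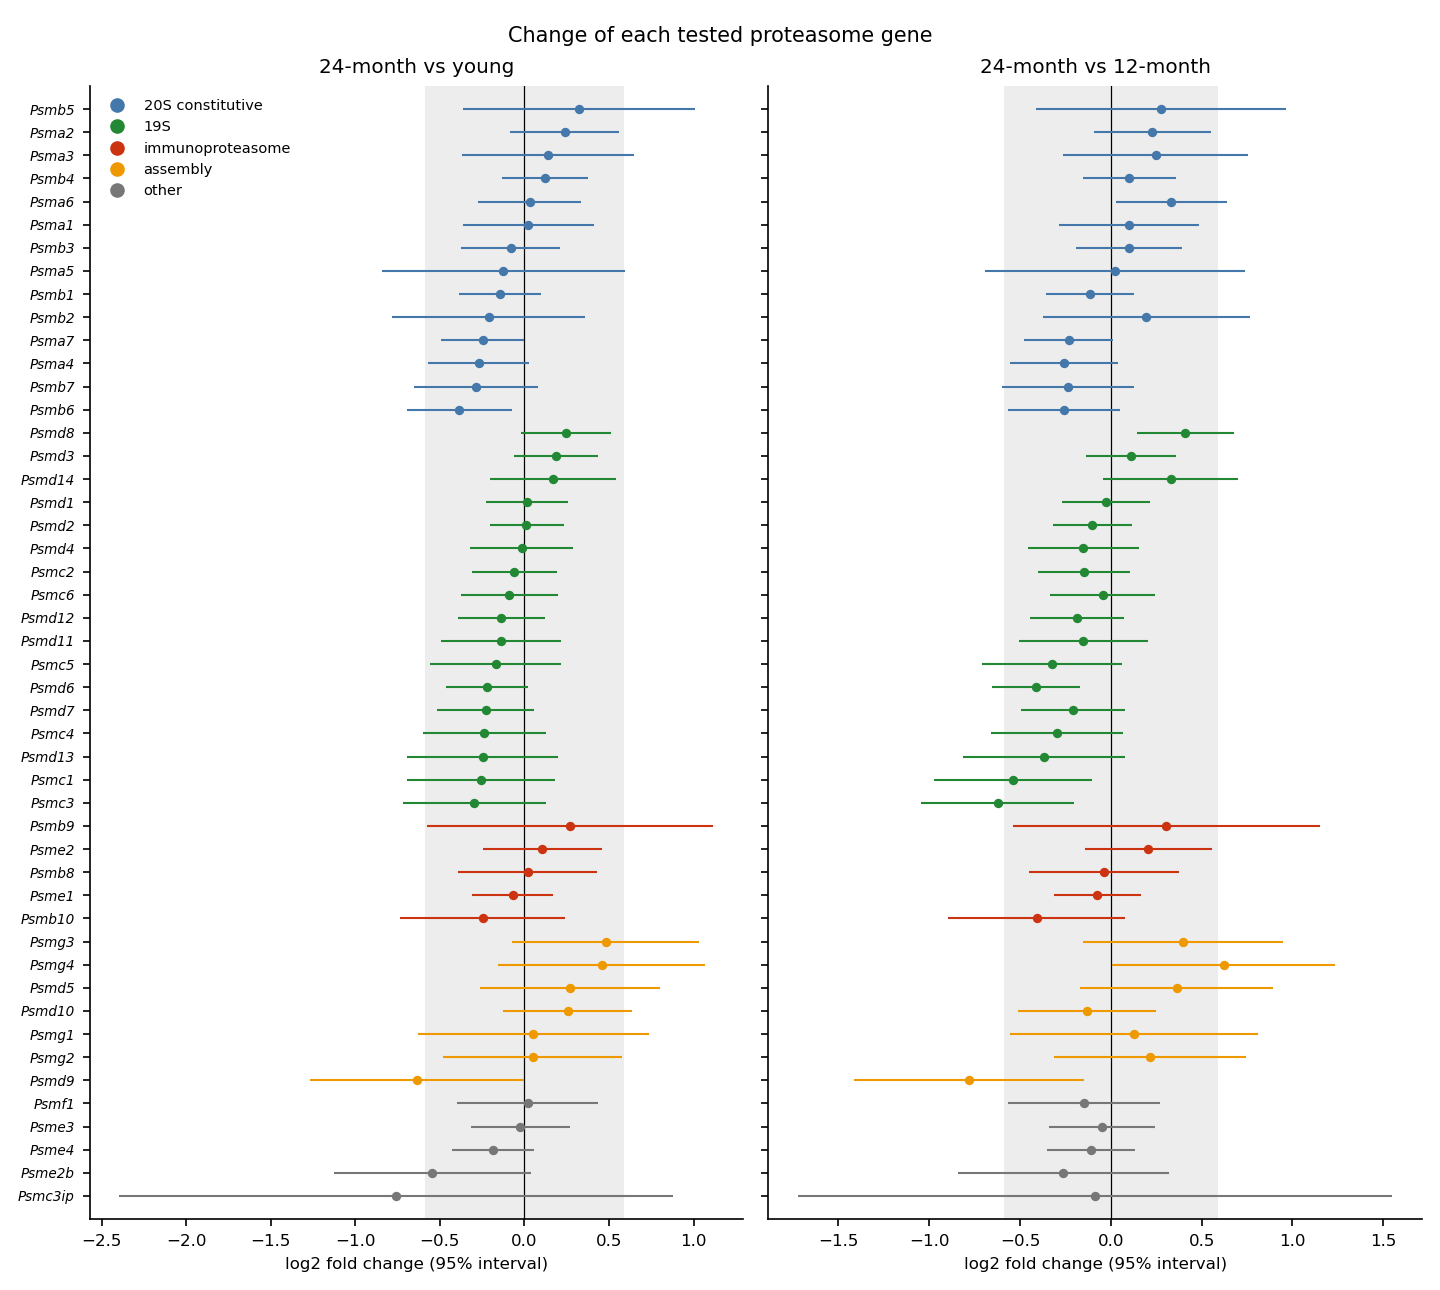
Log2 fold change with its 95% interval (x axis) for each of the 48 tested genes (y axis), at 24 months against young (left) and against 12 months (right), coloured by group; the grey band marks 1.5-fold. On the left, 28 intervals lie within the band. On the right, the longest runs to one side are among the 19S genes. Of those, 14 of 17 were lower at 24 months, beside 5391 of 11288 genes tested.

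Of the constitutive catalytic subunits, *Psmb6* and *Psmb7* gave the lowest estimates of the core at 24 months, and neither was a DEG. *Psmb6*, which carries the caspase-like activity, had the lowest p of any member in the comparison of 24 months with young. Its normalized counts were 1151, 737, 869, 858 and 827 in young mice. They were 637, 829, 756, 916 and 921 at 12 months. They were 805, 928, 619, 633 and 602 at 18 months, and 632, 709, 874, 562 and 626 at 24 months. The groups overlapped at every age, and the highest library of all was young replicate 1. The log2 fold change was −0.38 ± 0.15 (SE) at 24 months (limma, adjusted p = 0.36; two-sided exact permutation test, p = 0.048) and −0.31 ± 0.15 at 18 months (limma, adjusted p = 0.68; exact permutation, p = 0.095). Over all aged libraries it was −0.28 ± 0.13 (limma, adjusted p = 0.58). Without young replicate 1 these values were −0.29 ± 0.15, −0.22 ± 0.15 and −0.18 ± 0.13 (limma, adjusted p of 0.67, 0.90 and 0.84), and none kept an unadjusted p below 0.05.

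*Psmb7*, with the trypsin-like activity, had values of 350, 426, 344, 294 and 198 in young mice and 239.9, 259, 243, 265 and 276 at 24 months. The young libraries spanned the 24-month ones on both sides. The log2 fold change was −0.29 ± 0.18 (limma, adjusted p = 0.63), −0.45 without young replicate 5 and −0.18 without young replicate 2.

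*Psmb5*, which carries the chymotrypsin-like activity and is the main target of bortezomib, varied most among young mice. Its values were 32.9, 160.4, 225, 201 and 97.7 in young mice, 117, 124, 155, 107 and 115 at 12 months, 165, 119.6, 157, 149 and 219 at 18 months, and 138, 103, 166, 180.1 and 170.4 at 24 months. The low value of young replicate 1 set the sign of the difference, since the log2 fold change at 24 months was 0.32 ± 0.34 with that library (limma, adjusted p = 0.80) and −0.13 without it.

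The inducible catalytic subunits spread widely within each age, and the ages overlapped. *Psmb8*, which takes the place of *Psmb5*, had values of 204, 423, 308, 359 and 268 in young mice, 365, 234, 309.6, 359 and 329 at 12 months, 296, 613, 281, 376 and 363 at 18 months, and 352, 279, 281, 276 and 358 at 24 months. The 24-month libraries all lay within the range of the young ones, and the log2 fold change was 0.02 ± 0.20 with an interval of −0.39 to 0.43 (limma, adjusted p = 0.99). It was −0.12 without young replicate 1.

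*Psmb9*, the counterpart of *Psmb6*, had the widest spread of the 5 immunoproteasome genes. In young mice it was at 72.3, 165, 176, 139.9 and 24.7. At 24 months it was at 128, 70.7, 70.9, 137 and 216. At 12 months it ran from 51.1 to 163 and at 18 months from 89.0 to 189.9. The log2 fold change at 24 months was 0.27 ± 0.41 (limma, adjusted p = 0.88), and its interval, −0.58 to 1.12, does not bound a change of 2-fold upward. Without young replicate 5 the estimate was −0.20.

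*Psmb10*, the counterpart of *Psmb7*, was at 189.6, 149, 112, 205 and 138 in young mice. At 24 months it was at 171, 97.6, 125, 138 and 132. Its log2 fold change was −0.25 ± 0.24 (limma, adjusted p = 0.78), and the highest library of all was 12-month replicate 5, at 259.96.

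**Figure D2:**
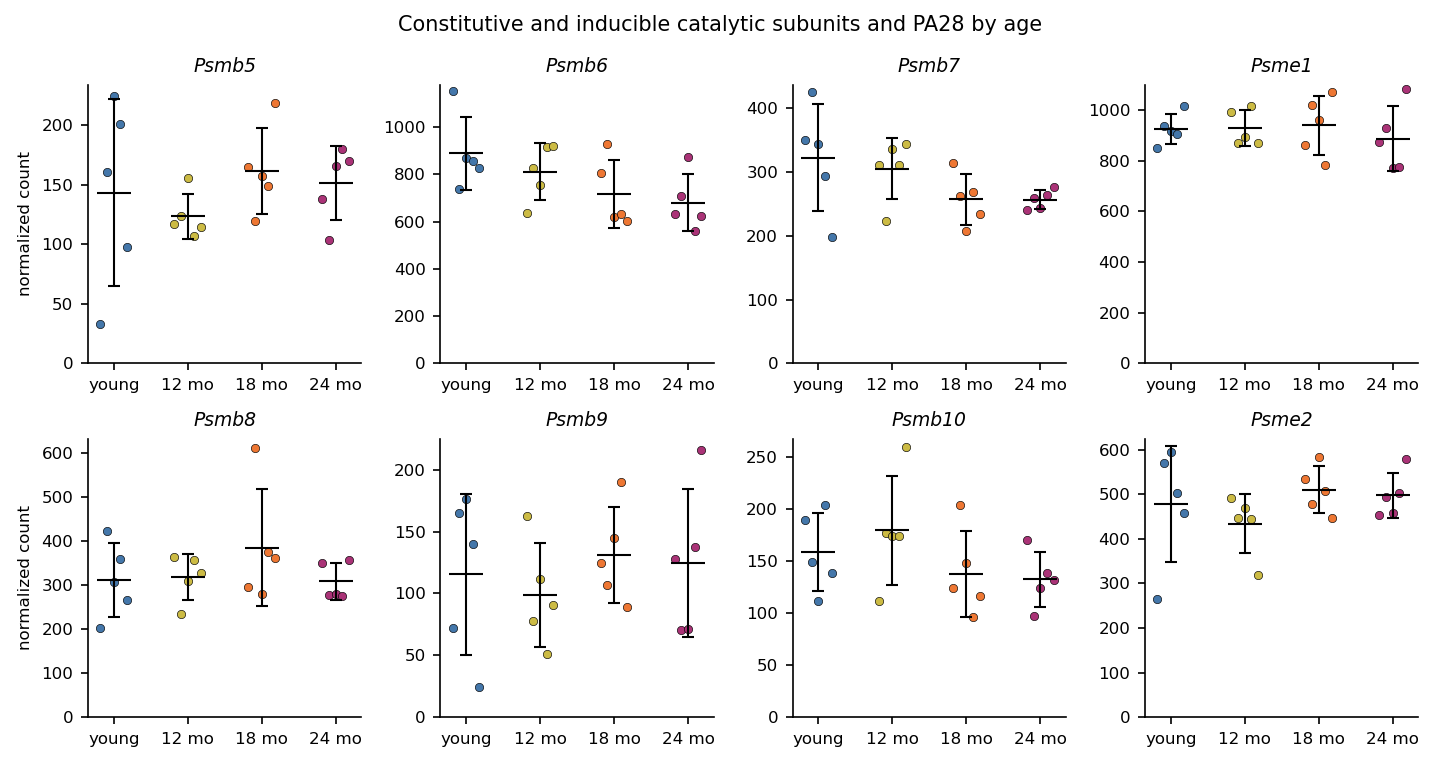
Normalized counts (y axis, linear from 0) in each library by age (x axis) for the constitutive catalytic subunits Psmb5, Psmb6 and Psmb7, the inducible Psmb8, Psmb9 and Psmb10, and the PA28 subunits Psme1 and Psme2; bars give the mean and SD of 5 libraries. The ages overlap in every panel, and Psmb5 and Psmb9 have the widest spread relative to their level.

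A ratio within a library does not depend on its size factor. The log2 ratio of *Psmb8* to *Psmb5* was 1.34 ± 0.81 in young mice, 1.36 ± 0.38 at 12 months, 1.22 ± 0.67 at 18 months and 1.04 ± 0.35 at 24 months (SD, n = 5 each). That of *Psmb9* to *Psmb6* was −3.21 ± 1.24, −3.12 ± 0.81, −2.47 ± 0.55 and −2.55 ± 0.87. That of *Psmb10* to *Psmb7* was −1.01 ± 0.53, −0.79 ± 0.46, −0.93 ± 0.49 and −0.97 ± 0.33. For each pair, the difference between 24 months and young (−0.30, 0.66 and 0.04) was smaller than the SD among young libraries. Leaving out 1 library moved each difference. The first ranged from −0.53 (without young replicate 3) to 0.01 (without young replicate 1). For *Psmb9* to *Psmb6* the range was 0.20 (without young replicate 5) to 0.92 (without young replicate 2), and for *Psmb10* to *Psmb7* the sign turned, from −0.11 (without young replicate 3) to 0.16 (without young replicate 5).

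**Figure D3:**
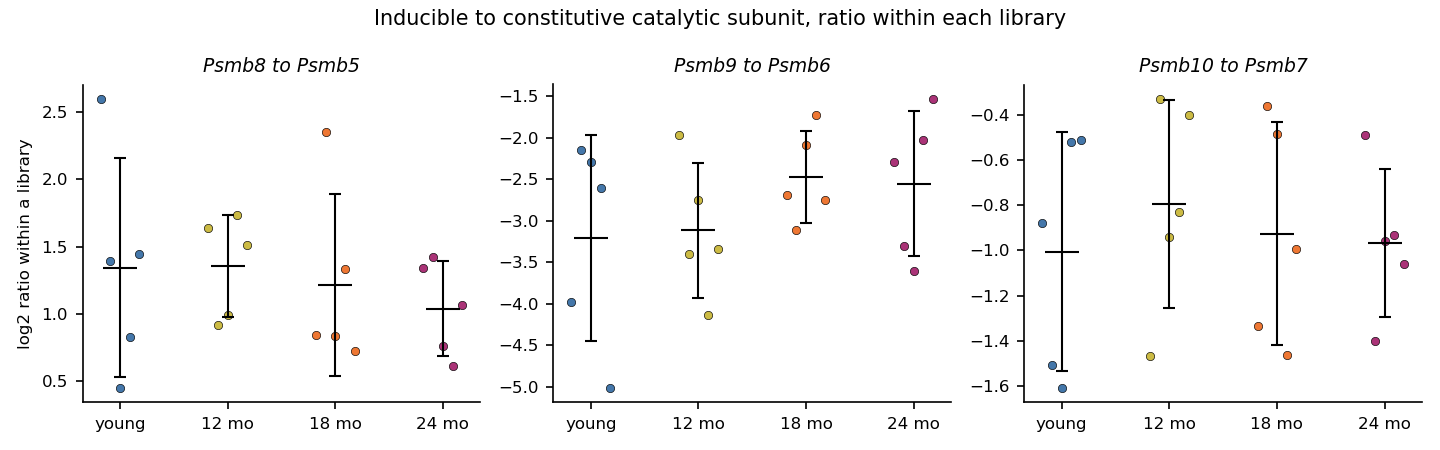
Log2 ratio of each inducible catalytic subunit to the constitutive one it replaces, within each library (y axis), by age (x axis), with the mean and SD of 5 libraries. The 4 ages overlap for all 3 pairs, and the highest Psmb8 to Psmb5 ratio, 2.60, is that of young replicate 1.

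*Psme1* and *Psme2* encode the PA28 alpha and beta subunits, which form an interferon-induced ring on the end of the core. *Psme1* was among the steadiest members, at 851, 938, 919, 905 and 1015 in young mice and 874, 929, 773, 776 and 1085 at 24 months. Its change of −0.07 ± 0.12 (log2) had an interval of −0.31 to 0.17. *Psme2* was at 266, 569, 594, 503 and 457 in young mice and at 454, 494, 458, 503 and 579 at 24 months. The log2 fold change was 0.11 ± 0.17, and −0.09 without young replicate 1, its lowest library.

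Genes that interferon induces with the immunoproteasome gave 1 call. Of 16 listed genes for interferon signalling and class I presentation, 15 were tested, and 0 were DEGs at any age against young. Between 12 and 24 months, 1 rose, *Irf1*, a transcription factor that activates immunoproteasome and class I genes. It went from 2452 ± 314 to 3479 ± 440 normalized counts (SD, n = 5 each), with a log2 fold change of 0.51 ± 0.11 (limma, adjusted p = 0.042). Its adjusted p was 0.05 or less in 5 of the 20 fits that left out 1 library (range 0.020 to 0.14), and 0.084 with the replicate number as a block. In the same comparison the 5 immunoproteasome genes had 2 higher and 3 lower estimates and a median of −0.04 (log2 fold change).

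Leukocytes carry immunoproteasomes, and 12 of 13 listed leukocyte markers were in the table. None was at 0 in every library, and 7 passed the expression minimum. Their summed level ran from 321 to 488 normalized counts in young mice, from 189 to 304 at 12 months, from 257 to 487 at 18 months and from 219 to 308 at 24 months. Every 12-month and 24-month sum lay below the young ones. Of the 7 tested, 6, 6 and 7 had a lower estimate than young at 12, 18 and 24 months. The median log2 fold changes were −0.40, −0.45 and −0.92, beside −0.01, −0.001 and 0.005 over all genes tested. None of the 7 was a DEG against young. In limma, 1, 0 and 1 had an unadjusted p below 0.05 at 12, 18 and 24 months. Of all genes tested, 9.56%, 7.18% and 9.97% did. The part of leukocytes in the immunoproteasome values was not tested.

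The other 11 core subunits are the 7 alpha subunits, which form the gate, and the beta subunits *Psmb1* to *Psmb4*, which carry no proteolytic site. At 24 months against young, the 14 core genes had log2 fold changes from −0.38 to 0.32, with 6 higher and 8 lower. Besides *Psmb6*, only *Psma7* had an unadjusted p below 0.05, with 2483, 1763, 2080, 1905 and 1928 in young mice and 1663, 1472, 2023, 1809 and 1587 at 24 months. Its log2 fold change was −0.25 ± 0.12 (limma, adjusted p = 0.49; two-sided exact permutation test, p = 0.064), and it was −0.17 ± 0.12 without young replicate 1, its highest library (limma, adjusted p = 0.82). In that fit neither *Psmb6* nor *Psma7* had an unadjusted p below 0.05 at 24 months, and the only member that did was *Psmb2*, at −0.52 ± 0.24 (limma, adjusted p = 0.54). *Psma7* and *Psmb2* were picked for naming after their values were seen.

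Among members with a lower estimate at 12 months than in young mice, *Psma6* had the lowest p, with a log2 fold change of −0.30 ± 0.15 (limma, adjusted p = 0.53; two-sided exact permutation test, p = 0.095). At 24 months it had 0.03 ± 0.15. Its values were 404, 444, 341, 454 and 358 in young mice, 392, 272, 395, 314 and 263 at 12 months, and 431, 398, 421, 392 and 391 at 24 months. *Psma5* gave the largest estimate of the core at 18 months, 0.51 ± 0.35 (limma, adjusted p = 0.86; two-sided exact permutation test, p = 0.20). The lowest of its young libraries, replicate 1, was at 52.6, and the other 4 at 118 to 221. The 18-month libraries ran from 151 to 230.2. The estimate without young replicate 1 was 0.19 ± 0.32 (limma, adjusted p = 0.98).

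The 19S cap had most of its estimates on the same side between the aged groups. At 24 months against 12 months, 14 of its 17 genes had a lower and 3 a higher estimate. The share with a higher estimate was 17.6%, beside 52.2% of all genes tested. The median log2 fold change was −0.15, beside 0.02 over all genes tested. At 12 months against young, 13 of 17 (76.5%) had a higher estimate, beside 48.3% of all genes, with a median of 0.08. These comparisons share the 12-month libraries. Among those, replicate 5 had the highest cap median, 0.24 (log2) above the young mean, with −0.03 to 0.12 in the others. The counts were not made without it, and cap genes that vary together are not replicates. The 7 members with an unadjusted p below 0.05 at 24 against 12 months were 4 cap genes (*Psmd6*, *Psmc3* and *Psmc1* lower, *Psmd8* higher), 2 assembly factors (*Psmd9* lower, *Psmg4* higher) and 1 core gene (*Psma6* higher). The 7 were 14.6% of the members, beside 14.7% of all genes.

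*Psmd6*, a non-ATPase subunit of the lid, had the lowest p of any member in any comparison. It was at 784, 929.95, 929, 1028 and 953 at 12 months. It was at 669, 715, 771, 761 and 568 at 24 months. The 2 groups did not overlap, as for 2 of 48 members (4.17%) and 3.24% of all genes tested. Its log2 fold change was −0.41 ± 0.12 (limma, adjusted p = 0.12). The two-sided exact permutation test gave p = 0.0079, the smallest that 5 against 5 can give, which non-overlap alone fixes. The young libraries, at 914, 706, 823, 739 and 873, lay between these groups and overlapped with both. At 18 months it was at 853, 774, 931, 846 and 955.

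*Psmd8*, also a lid subunit, had the opposite direction. It was at 949, 758, 754, 609 and 731 at 12 months and at 848, 871, 1103, 1125 and 1094 at 24 months. Only 12-month replicate 1 reached into the 24-month range. On the log2 scale the difference was 0.41 ± 0.13 (limma, adjusted p = 0.15; two-sided exact permutation test, p = 0.024).

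*Psmc3* and *Psmc1* encode ATPases of the ring at the base of the cap. *Psmc3* was at 1476, 2527, 2014, 2373 and 3682 at 12 months and at 1406, 1508, 2029, 1279 and 1370.4 at 24 months. In young mice it was at 3291, 1344, 1385, 1659 and 2079. Its highest libraries were thus 12-month replicate 5 and young replicate 1. The log2 fold change from 12 to 24 months was −0.62 ± 0.21 (limma, adjusted p = 0.17; two-sided exact permutation test, p = 0.040) and −0.46 ± 0.20 without 12-month replicate 5 (limma, adjusted p = 0.43).

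*Psmc1* had the same highest libraries, at 4193 in each, while the other 18 libraries ran from 1412 to 2467. From 12 to 24 months its log2 fold change was −0.54 ± 0.21 (limma, adjusted p = 0.25; two-sided exact permutation test, p = 0.016), and without 12-month replicate 5 its unadjusted p was above 0.05. Young replicate 1 is in neither of these groups but enters the shared estimate of the spread. Without it, the limma adjusted p at 24 against 12 months was 0.070 for *Psmc3* and 0.081 for *Psmc1*. It was 0.077 for *Psmd6* and 0.093 for *Psmd8* in the same fit. Without young replicate 1, *Psmc3* had a log2 fold change of 0.54 ± 0.18 at 12 months against young (limma, adjusted p = 0.18) and *Psmc1* of 0.55 ± 0.16 (limma, adjusted p = 0.11). In that fit 6 members had an unadjusted p below 0.05 at 12 months against young, and 9 did at 24 against 12 months. In both comparisons 0 were DEGs. The share of all genes in that fit was not counted.

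*Psmc4*, another base ATPase, was the only member whose 24-month and young libraries did not overlap, where 2.81% of all genes tested did not. It was at 495, 331, 353, 341 and 373 in young mice and at 324, 322, 324, 318 and 301 at 24 months, so that the groups came within a few counts of each other. On the log2 scale the difference was −0.24 ± 0.18 (limma, adjusted p = 0.71), and −0.14 ± 0.18 without young replicate 1. The two-sided exact permutation test gave p = 0.0079, the smallest that 5 against 5 can give, which non-overlap alone fixes. *Psmc1* and *Psmc4* were picked for naming after their values were seen.

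**Figure D4:**
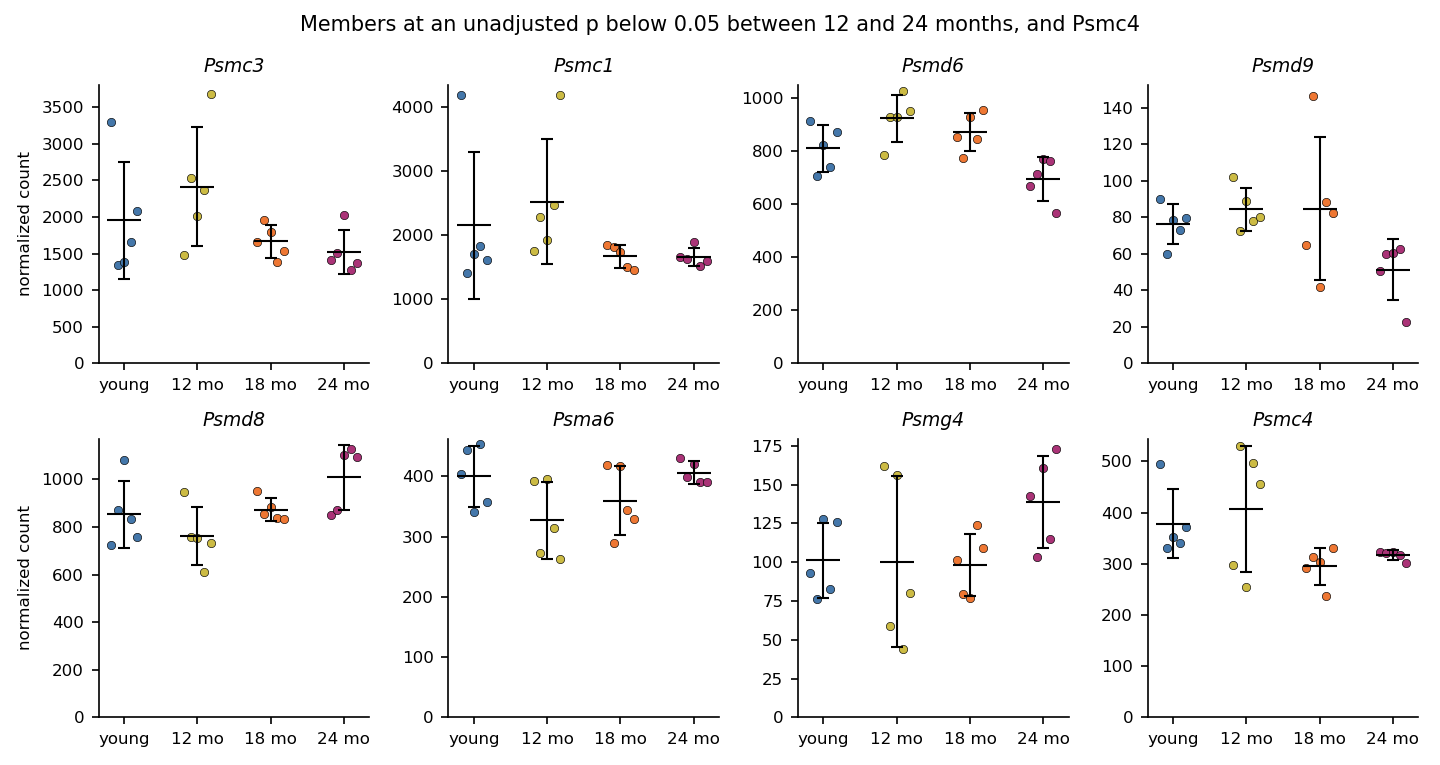
Normalized counts (y axis, linear from 0) in each library by age (x axis) for Psmc4 and for the 7 members whose unadjusted p for 12 against 24 months was below 0.05; bars give the mean and SD of 5 libraries. Psmd6 and Psmd9 do not overlap between 12 and 24 months, and Psmc3 and Psmc1 have their highest libraries in young replicate 1 and 12-month replicate 5.

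The other named 19S genes were not DEGs. The ubiquitin receptor *Psmd4* was at 1104 ± 314 in young mice and 1067 ± 128 at 24 months, with a log2 fold change of −0.02 ± 0.15, and 0.13 without young replicate 1. The deubiquitinase *Psmd14* was at 429.9 ± 84.0 and 479 ± 58.6, with 0.17 ± 0.18, and 0.05 without young replicate 1. The lid subunit *Psmd11* was at 353 ± 39.2 and 329 ± 91.2, with −0.14 ± 0.17, −0.28 without 24-month replicate 4 and −0.04 without 24-month replicate 3 (SD, n = 5 each; limma, adjusted p of 0.81 or more for the 3 genes).

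The 7 assembly factors had 6 higher (85.7%, beside 50.7% of all genes tested) and 1 lower estimate at 24 months against young. They had 0 DEGs and a median of 0.26 (log2 fold change). The largest of the higher estimates came from *Psmg3* and *Psmg4*, which form a pair of chaperones for the alpha ring. *Psmg3* was at 70.2, 104, 106, 89.0 and 128 in young mice and at 133, 134, 120.1, 128 and 172 at 24 months. Its 24-month libraries overlapped with 1 young library. Its log2 fold change was 0.48 ± 0.27 (limma, adjusted p = 0.58; two-sided exact permutation test, p = 0.024), and 0.36 without young replicate 1.

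*Psmg4* was at 93.2, 76.4, 128, 82.6 and 126 in young mice and at 142, 103, 161, 115 and 173 at 24 months, with a log2 fold change of 0.46 ± 0.30 (limma, adjusted p = 0.65). *Psmg1* and *Psmg2*, the other pair of alpha ring chaperones, had 0.05 ± 0.33 and 0.05 ± 0.26. Both signs turned when single libraries were left out.

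*Psmd5*, *Psmd9* and *Psmd10* are chaperones of the 19S base and are not part of the finished proteasome. *Psmd9* was at 89.9, 60.0, 78.5, 73.1 and 79.7 in young mice, 102, 72.3, 88.9, 78.2 and 80.3 at 12 months, and 50.7, 60.2, 60.5, 62.7 and 22.6 at 24 months. The 24-month libraries all lay below the 12-month ones and overlapped with the young ones only through young replicate 2. On the log2 scale the difference from 12 months was −0.78 ± 0.31 (limma, adjusted p = 0.25). The two-sided exact permutation test gave p = 0.0079, the smallest possible, which non-overlap alone fixes. Against young, *Psmd9* differed by −0.63 ± 0.31 (limma, adjusted p = 0.50), with p = 0.032 in the exact permutation test. Without 24-month replicate 5, its lowest library, the difference from young was −0.37.

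*Psmd10*, also named gankyrin, had the lowest p at 12 months against young, with a log2 fold change of 0.39 ± 0.19 (limma, adjusted p = 0.51; two-sided exact permutation test, p = 0.079). It was at 206, 199, 188, 215 and 151 in young mice, 226, 292, 173, 249 and 339 at 12 months, and 207, 241, 204, 249 and 241 at 24 months. *Psmd5* had 0.27 ± 0.26 at 24 months (limma, adjusted p = 0.79), 0.14 without young replicate 1 and 0.047 without 24-month replicate 5.

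Of the 7 other genes, *Psme3* (nuclear PA28 gamma), *Psme4* (the PA200 activator) and *Psmf1* (the inhibitor PI31) were tested by name. At 24 months their log2 fold changes were −0.02 ± 0.14, −0.19 ± 0.12 and 0.02 ± 0.20 (limma, adjusted p of 0.64 or more). *Psmf1* had 0.16 without young replicate 1. *Psme3* had an interval of −0.32 to 0.27 and so lay within 1.5-fold. *Psmc3ip* encodes a meiotic recombination protein and no proteasome subunit, and had a mean of 22.8 normalized counts. *Psme2b* is a near copy of *Psme2*, so that reads may be split between them, and its values are uncertain.

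Factors that act with the proteasome showed no call either. The list for ubiquitin, shuttling and proteasome regulation held 35 symbols, some of them other names of listed genes. Of these symbols, 31 were in the table and 30 were tested, and 0 were DEGs in any of the comparisons between single ages. In limma, 3, 2, 2 and 4 had an unadjusted p below 0.05 at 12, 18 and 24 months against young and at 24 against 12 months. Of all genes tested, 9.56%, 7.18%, 9.97% and 14.7% did. *Pomp*, the chaperone of the beta ring, was at 1420 ± 118 in young mice, 1851 ± 251 at 12 months, 1520 ± 156 at 18 months and 1412 ± 151 at 24 months. Its difference on the log2 scale was 0.38 ± 0.11 at 12 months against young (limma, adjusted p = 0.16) and −0.39 ± 0.11 from 12 to 24 months (limma, adjusted p = 0.12). *Nfe2l1*, the transcription factor that induces proteasome genes when proteolysis fails, was at 559.6 ± 184 in young mice and 524 ± 50.7 at 24 months, with −0.04 ± 0.17.

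The members varied together between animals of the same age, and not all in the same direction. Each value was taken as its deviation from the mean log2 value of its age, and Pearson's r was computed for all 1128 pairs of members over the 20 libraries. The libraries share their preparation, and r is a description. The median r was 0.01, but 129 pairs (11.4%) had an r above 0.5 and 124 (11%) an r below −0.5, against 4.92% and 4.67% of the pairs of all genes tested. Without young replicate 1, the counts were 100 (8.87%) and 81 (7.18%), against 4.65% and 4.37%. In the 15 aged libraries alone, they were 106 (9.4%) and 100 (8.87%), against 6.59% and 6.32%. The members and all genes tested were not matched for expression level in these shares.

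The extremes lay within the proteasome itself. The base ATPases *Psmc3* and *Psmc1* had an r of 0.89, and *Psmc3* and the alpha ring subunit *Psma3* an r of −0.93. Without young replicate 1 these were 0.83 and −0.92, and in the aged libraries alone 0.90 and −0.92. *Psma3* was picked for naming after its values were seen.

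A first component of the members' standardised deviations held 36.4% of their variance, and the next 10.9%. Of the 48 members, 11 had an r above 0.5 with it and 17 an r below −0.5. At one end were *Psmc3*, *Psmc1*, *Psmc5* and *Psmf1*, and at the other *Psma3*, *Psme2*, *Psma5* and *Psmb2*. Subunits of the same particle lay at both ends, with 10 of 17 cap genes on the side of *Psmc3* and 10 of 14 core genes on the side of *Psma3*.

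The component was not particular to the proteasome. It had an r of 0.96 with the first component of all genes tested, which held 20.5% of their variance. Young replicate 1 lay farthest out on it, with a score of 2.55, and 12-month replicate 5 next, with 1.67, while 12-month replicate 1 was lowest, with −1.43. Its r with the number of reads was −0.37. Across the 48 members, the loading had an r of 0.11 with GC content, 0.10 with the logarithm of transcript length and 0.26 with the logarithm of the level. The part of RNA quality or of other properties of the animals in it was not tested.

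**Figure D5:**
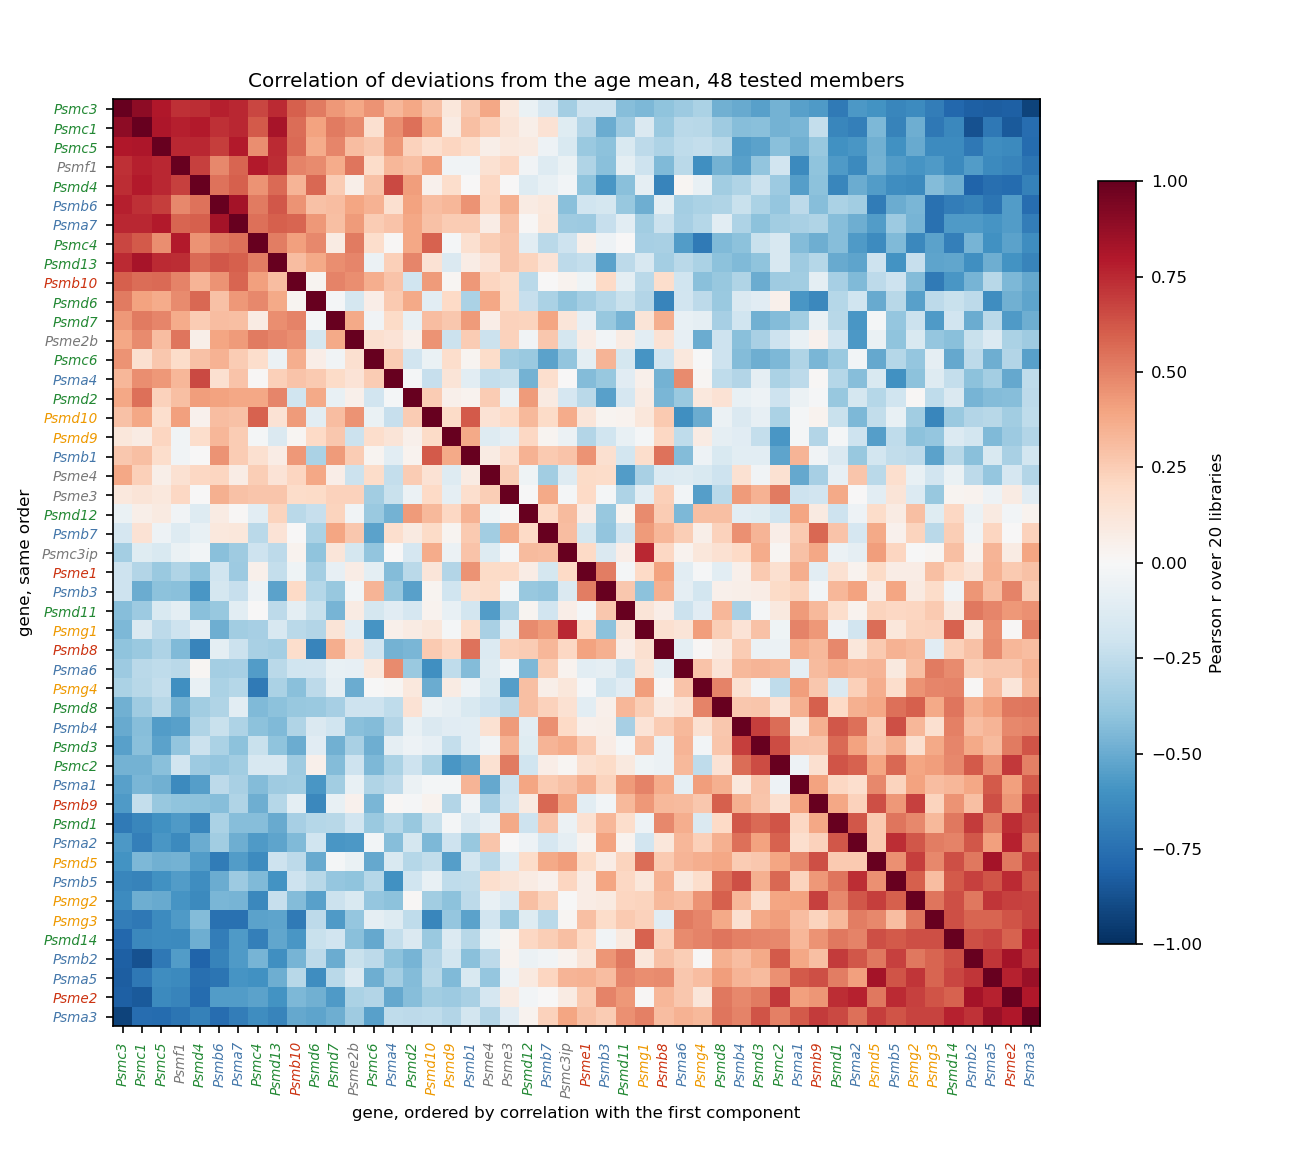
Pearson r over the 20 libraries between the deviations of the 48 tested genes from their age means, with genes on both axes in the order of their correlation with the first component and labels coloured by group (blue 20S, green 19S, red immunoproteasome, orange assembly, grey other). Red blocks at both ends of the diagonal and blue blocks off it show members that move together and members that move oppositely, from an r of 0.89 to −0.93.

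At the median, members spread less within an age than all genes tested did. The genes were not matched for expression level. The SD of the deviations from the age mean had a median of 0.28 on the log2 scale over the 48 members and 0.25 over the 31 constitutive core and cap genes, beside 0.39 over all genes tested, and 32 of 48 members lay below the last value. *Psmd2* (0.14), *Psmd6* (0.15) and *Psme1* (0.15) were the steadiest, and *Psmb9* (0.77), *Psma5* (0.64) and *Psmb5* (0.61) the most variable besides *Psmc3ip*. The former had means of 826 to 1622 normalized counts, and the latter, without *Psmc3ip*, of 117 to 147.

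Promoters of 4 members that lay at opposite ends of the component are shown, with 1 core and 1 cap gene from each end. Each is the 250 bases before the RefSeq start (GRCm38.p6), 5′ to 3′ on the strand of the gene, and none overlaps the gene's own annotated span. Promoters were matched by gene identifier for 42 of the 50 members. Capitals mark TGACNNNGC, the core of the antioxidant response element that the transcription factors NFE2L1 and NFE2L2 bind, or CCAAT, the site of NF-Y, on either strand. On the side of *Psmc3* are *Psma7* (chr2:180042465-180042714, minus strand) and *Psmc1* (chr12:100109952-100110201, plus strand). On the side of *Psma3* are *Psmb5* (chr14:54617996-54618245, minus strand) and *Psmd14* (chr2:61711444-61711693, plus strand).
*Psma7*: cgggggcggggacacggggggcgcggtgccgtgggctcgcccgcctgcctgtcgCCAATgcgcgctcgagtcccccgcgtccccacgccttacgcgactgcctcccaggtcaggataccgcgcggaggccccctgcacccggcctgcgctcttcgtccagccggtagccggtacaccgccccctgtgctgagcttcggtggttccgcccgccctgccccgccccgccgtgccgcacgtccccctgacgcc
*Psmc1*: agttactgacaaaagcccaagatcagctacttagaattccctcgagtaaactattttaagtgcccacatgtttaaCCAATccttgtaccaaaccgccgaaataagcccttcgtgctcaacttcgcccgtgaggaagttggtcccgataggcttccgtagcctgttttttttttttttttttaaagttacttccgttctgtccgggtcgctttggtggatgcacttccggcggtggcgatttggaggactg
*Psmb5*: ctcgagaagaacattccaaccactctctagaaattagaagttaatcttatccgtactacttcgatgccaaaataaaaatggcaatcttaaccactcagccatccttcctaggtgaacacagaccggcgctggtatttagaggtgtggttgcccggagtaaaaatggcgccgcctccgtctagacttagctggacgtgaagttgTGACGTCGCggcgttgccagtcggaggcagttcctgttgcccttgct
*Psmd14*: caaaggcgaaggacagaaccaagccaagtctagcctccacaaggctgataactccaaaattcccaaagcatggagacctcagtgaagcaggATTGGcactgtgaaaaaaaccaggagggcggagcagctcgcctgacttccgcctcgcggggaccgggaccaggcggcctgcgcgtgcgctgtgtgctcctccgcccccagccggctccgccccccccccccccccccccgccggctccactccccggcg

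Of these, *Psmb5* holds TGACNNNGC, starting 47 bases before the start site, and the other 3 hold CCAAT, on the reverse strand in *Psmd14*, where it reads ATTGG. TGACNNNGC was present in the promoters of 2 of 11 matched core genes and 2 of 14 matched cap genes, beside 11.5% of 27025 genes. CCAAT was present for 6 of 11 core and 4 of 14 cap genes, beside 37.5% of all these genes. The core of the interferon-stimulated response element was searched with its 2 central bases free. It was found for 0 of 5 immunoproteasome genes within these 250 bases, beside 3.46% of all genes. A match is a description of letters and does not show binding. CCAAT and TGACNNNGC were each found at both ends of the component. *Psmb6*, not shown, held TGACNNNGC starting 9 bases before the start site. It lay on the side of *Psmc3*, with an r of 0.78 with the component, and *Psma7* had 0.76. The promoters shown are examples, and their genes were not always the farthest out. *Psma5*, not shown, had an r of −0.87, beside −0.73 for *Psmb5*, and held neither TGACNNNGC nor CCAAT.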

How the data were processed

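RNA was measured in 20 libraries of corneal epithelium, made with oligo-dT primers and sequenced as 75-base single reads. By the authors, adapters were cut with cutadapt and the alignment to GRCm38 was made in STAR. The authors took the count of each gene from HTSeq and scaled it by the relative log expression method in DESeq2. Versions are not given in the sources used here. The deposited values are other than counts: log2 of the count divided by the size factor of the library plus 1. The deposited files also hold the results of the authors' tests (fold changes with raw and adjusted p-values), which were not used.

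The normalized counts were recovered from the log2 values, and every value multiplied by its size factor gave whole reads within 0.01. Tests were fitted with limma 3.58.1 in R 4.3.3 (trend on, 1 fit of the 4 ages; a fit of 2 groups for aged against young) on genes that averaged 10 or more normalized counts, with Benjamini-Hochberg adjustment over 11288 genes. DEGs needed an adjusted p of 0.05 or less and 1.2-fold. Fold changes are on the log2(value + 1) scale, which understates changes of low genes. Exact permutation tests used all 252 splits of 5 against 5. Scripts ran in Python 3.11.15 with numpy 2.4.6, pandas 2.3.3, scipy 1.17.1 and matplotlib 3.10.9. Fits were tested on simulated data.

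The members, their groups and the lists were chosen with earlier results of these data known. Named were the immunoproteasome genes and their constitutive counterparts, the regulators, 3 cap genes, the assembly factors, *Pomp*, *Nfe2l1*, the member with the lowest p in each direction and comparison, and the core and cap genes with the largest change at 24 months. *Irf1* was named as the call of its list. Replicates are separate mice. Alternatives were quantile normalization, other expression filters and fold thresholds, pseudocounts of 0.1 and 10, voom, the replicate number as a block, fits of 2 groups and leaving out each library. The covariation without young replicate 1 and in aged libraries alone was chosen after seeing the data.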

Additional observations from a re-analysis of the deposited data

Results flagged for a closer look

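In 4 of 104 groups of 5 libraries examined for the 26 named members, the highest or lowest library was far from the others (Dixon's test, critical value 0.71); chance alone flags about 1 in 20 groups. *Psmb8* in 18-month replicate 2 was at 613.4 normalized counts, and the other 4 libraries at 281.1 to 376.3. *Psme2* in 12-month replicate 5 was at 319.9, and the others at 444.9 to 490.8. *Psmb7* in 12-month replicate 2 was at 223.6, and the others at 310.7 to 344.1. *Psmg3* in 24-month replicate 5 was at 172.2, and the others at 120.1 to 134.2. The members picked for naming after their values were seen (*Psmc1*, *Psmc4*, *Psma7*, *Psmb2* and *Psma3*) were not examined in this way.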

How the results depend on the processing

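The count of 0 DEGs among the members was the same in each of the 6 comparisons under every alternative, and the group medians at 24 months and the 3 subunit ratios moved by less than the spread between replicates. With the replicate number as a block there were 0 DEGs, and 1, 0, 1, 7, 0 and 2 members had an unadjusted p below 0.05 at 12, 18 and 24 months against young, between 12 and 24 months, for aged against young and over any age. Libraries with the same number had a median r of 0.01 over 30 pairs (−0.30 to 0.16). Those with different numbers had 0.004 over 120 pairs (−0.27 to 0.29). Of the 20 libraries, 3 correlated best with their own number. The labels do not say what the number stands for, and a shared batch was not tested. Among the 26 named members, the sign at 24 months turned for 11 when 1 library was left out. The log2 fold change then ranged from −0.12 to 0.14 for *Psmb8*, −0.20 to 0.50 for *Psmb9*, −0.091 to 0.20 for *Psme2*, −0.13 to 0.55 for *Psmb5*, −0.058 to 0.017 for *Psme3*, −0.075 to 0.16 for *Psmf1*, −0.13 to 0.13 for *Psmd4*, −0.094 to 0.33 for *Psmg1*, −0.13 to 0.19 for *Psmg2*, −0.025 to 0.078 for *Psma6* and −0.44 to 0.12 for *Psma5*. *Psmb8* also turned to −0.004 under quantile normalization and to −0.008 with voom, and *Psmf1* to −0 under quantile normalization. Without 12-month replicate 1, 14 members had an unadjusted p below 0.05 at 24 against 12 months, and without 12-month replicate 5, 4 did. The shares of all genes were not counted in these fits or with the replicate number as a block. These member counts thus have no background beside them. The 5 libraries a group limit what can be seen, since for 7 of 48 members the interval at 24 months did not lie within 2-fold. The causes were not tested.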
